A study of Mus musculus with 8 samples.

Results

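Solute carriers are membrane proteins that move small molecules and ions across the cell surface and the membranes of organelles. They are numbered in families, and members of a family tend to carry related substrates. In the liver they bring amino acids, sugars, vitamins, metals and organic anions into the hepatocyte, and those of family 25 connect the cytosol with the mitochondrial matrix. The genes described here are all those whose symbol began with Slc or Slco followed by a digit and that had a probe set assigned to them alone. Slc2a2, Slc10a1, Slc25a15, Slc25a20, Slc27a2, Slc27a5, Slc37a4 and Slc40a1 were left out by the rule, of which 7 genes with 9 probe sets were on the array. This gave 179 probe sets for 147 genes, of 10833 probe sets with 1 gene symbol. One further probe set, shared by Slc22a28 and Slc22a30, was not used.

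Signals came from liver RNA of 8 female Ames dwarf mice (df/df), each read on its own Affymetrix U74Av2 array. Ames dwarf mice are without growth hormone, prolactin and thyrotropin. All had free access to standard pelleted food and their livers were taken at an age of 24 to 26 months. They form 1 group and are called livers 1 to 8 after the number in their titles. The labels do not say more about how the samples were separated, so p-values measure only the spread between these samples. Normal-sized mice were not analysed here, so nothing below describes an effect of dwarfism.

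The hepatocyte identity of the tissue showed in Alb, at signals of 25309.5 to 37059, and in Apoa1 and Cps1, whose lowest signals were 22844 and 19945. Correlations between arrays across tested probe sets ran from 0.907 to 0.973. Livers 4 and 8 stood apart in their macrophage genes: of 10 annotated macrophage and Kupffer cell markers, 9 had their 2 highest signals in these livers. Among all tested probe sets 9.32% did. The pattern was not limited to the macrophage list, since 3 of 7 lymphocyte, 2 of 5 stellate cell and 1 of 4 cholangiocyte markers shared it. Of these, the lymphocyte markers Ptprc and Cd3e and the cholangiocyte marker Epcam (5.2 to 19.9) were too dim to be tested. The lymphocyte markers Cd79a and Cd79b were instead lowest in liver 8 (159.6 and 85.8). The pattern was seen in 0 of 6 hepatocyte, 0 of 7 endothelial and 0 of 3 erythroid markers. Spike-in controls averaged 10.70 to 10.88 on the log2 scale on arrays 1 to 4 and 10.18 to 10.46 on arrays 5 to 8. Results that rest on either feature are given with and without it.

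The signal is the intensity of a probe set. Probe sets bind with different strength, so the order of signals below is an order on this array and not of RNA abundance. A member was tested when its mean log2 signal lay above the median of all probe sets other than controls, at a signal of 162. This kept 91 of the 179 probe sets (50.8%) and 81 of the 147 genes. No detection calls were at hand, so whether a signal below 162 is above background is not known. Of the 147 genes, each taken at its brightest probe set, 67 were above 162 in all 8 livers, 36 in some and 44 in none.

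Of the 147 genes, 1 had a mean signal over 10000, 6 lay between 3000 and 10000, 19 between 1000 and 3000, 58 between 162 and 1000, and 63 lower. The brightest was Slc38a4, a sodium-coupled transporter of neutral amino acids, with signals of 10282 in liver 4, a median of 13361 and 16663 in liver 3. It stood above every other member in all 8 livers, without overlap. The next were Slc25a47, a mitochondrial carrier found mainly in liver, with a median of 6858, and Slc25a39, which carries glutathione into mitochondria, with a median of 5649. Slc25a47 was above Slc25a39 in 6 of 8 livers and Slc25a39 was above Slc9a3r1 in 5, so these neighbours overlapped. Slc9a3r1 (median 5207) is a scaffold protein that binds transporters and is not one itself. A gap followed, since Slc9a3r1 was brighter than Slc6a13, a transporter of taurine and GABA, in 8 of 8 livers without overlap. From Slc6a13 (median 3299) down to Slc22a30 (median 2329), the signal ranges of all neighbours overlapped.

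**Figure D1:**
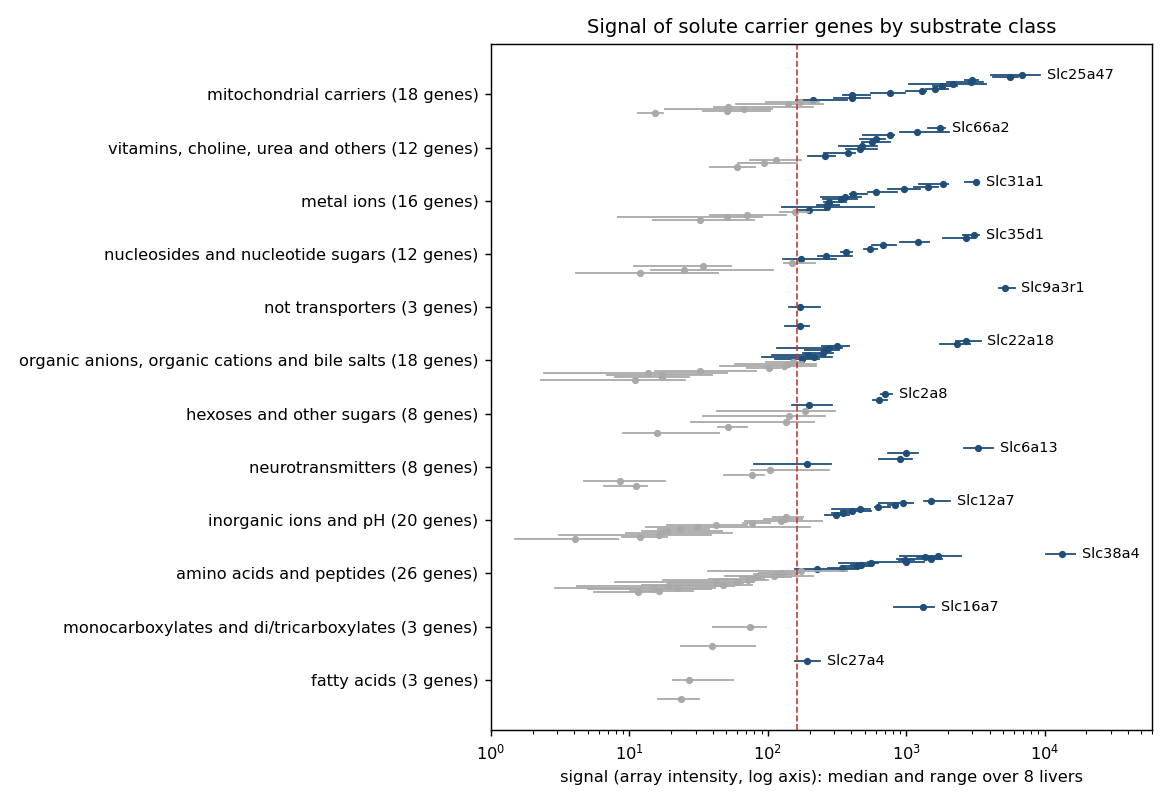
Signal of each of the 147 genes (log axis, intensity) by substrate class, with a point at the median and a line from the lowest to the highest of 8 livers; genes in blue were tested, those in grey were not, and the dashed line marks a signal of 162. The brightest gene of each class is named, and Slc38a4 lies to the right of all others although 15 of the 26 amino acid and peptide carriers were too dim to be tested.

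The substrate classes differed in how bright their members were. Classes were assigned by family number, with single genes moved by name. The median gene of the mitochondrial carriers had a log2 signal of 9.19 ± 0.18 (SD over 8 livers, 18 genes), that of vitamin, choline and other carriers 8.86 ± 0.20 (12 genes), and that of metal ion carriers 8.32 ± 0.24 (16 genes). Carriers of nucleosides and nucleotide sugars followed at 8.32 ± 0.14 (12 genes). The setting called shared sequence here removed probe sets whose names end in _s_at, _x_at, _f_at, _r_at, _g_at or _i_at. These endings do not all mark shared sequence. In this setting the first 2 classes changed order, at 8.68 for the mitochondrial carriers and 8.87 for the vitamin class. Neurotransmitter carriers fell to 6.58, below inorganic ion and amino acid carriers (6.97 each). Organic anion carriers, which lost Slc22a30 (ending _i_at), lay at 7.19, below sugar carriers at 7.29. The order of metal ion and nucleoside carriers held in only 4 of 8 livers, so they were not separated. The 3 genes with a carrier symbol that are not transporters lay at 7.59 ± 0.16. Carriers of organic anions, organic cations and bile salts lay at 7.29 ± 0.27 (18 genes), sugar carriers at 7.29 ± 0.35 (8 genes) and neurotransmitter carriers at 7.22 ± 0.25 (8 genes), and neighbours among them changed places between livers. Inorganic ion carriers lay at 6.97 ± 0.26 (20 genes) and amino acid and peptide carriers at 6.97 ± 0.38 (26 genes), in 4 livers in one order and in 4 in the other. The small classes of monocarboxylate carriers (6.15 ± 0.43) and fatty acid carriers (4.96 ± 0.49) had 3 genes each and came last. These are medians of array signals over differently annotated genes, and no test was made of them. Genes left out by the rule do not enter them. Among those are Slc27a2 and Slc27a5 of the fatty acid carriers, Slc2a2 of the sugar carriers and Slc10a1 of the bile salt carriers. The order of classes therefore holds only for the genes kept.

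A pair of call rules asked which members varied more between livers than other probe sets of like signal. Each liver had its own array only, so spread between livers and between arrays was not separated. The typical-variance test set the variance of each probe set against the usual variance at its signal, with adjustment over all 6211 tested probe sets, and called 702 of them, or 11.3%. Of the 91 member probe sets it called 6 (6.59%), a share below that background. The called members were Slc25a25, Slc11a1, Slc7a2, Slc23a2, Slc25a47 and Slc38a2. The limma test, which sets each variance against the spread of variances, called 0 of 6211 probe sets (0%) and 0 members. Of the members, 5 (5.49%) had an unadjusted limma p under 0.05, against 6.84% of all probe sets. The highest signal of a tested member was a median of 1.64 times its lowest, against 1.63 for all tested probe sets. In 28 members (30.8%) this range was under 1.5-fold, against 34.7% of all, and in 19 members (20.9%) it was over 2-fold, against 23.4%. These ranges lay close to the background of the array.

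**Figure D2:**
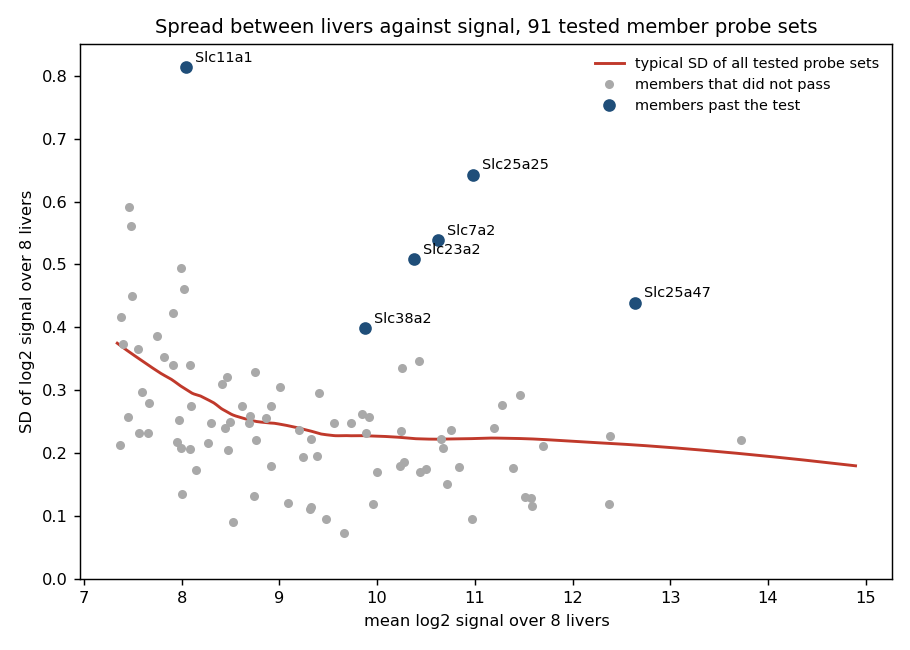
SD of log2 signal over 8 livers (vertical axis) against mean log2 signal (horizontal axis) for the 91 tested member probe sets, with the typical SD of all tested probe sets as a red line. The 6 members past the test are named in blue and lie well above the line, with Slc25a25 at 2.88 times the typical SD.

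Promoter windows of members past the test are printed first, because these genes varied more than is typical at their signal. Of the 6 genes, 5 had windows in RefSeq (GRCm38.p6), each from 250 bases before to 50 after a transcription start, and Slc7a2 is named only. Of these, 3 are shown, 5′ to 3′ on the gene's strand. Capitals mark matches on either strand to TGACGTCA (the cAMP response element), AGGTCA (a nuclear receptor half-site), GAGGAA (a core of PU.1 sites) and ATTGG (the CCAAT box). TATAAA was searched too and was in none of the 8 windows of these genes. All windows shown hold matches. Among the windows not shown, that of Slc38a2 and a window of Slc23a2 held no match to any of these motifs. These motifs were chosen with the sequences in view.
Slc25a25, chr2:32424017-32424316, minus strand: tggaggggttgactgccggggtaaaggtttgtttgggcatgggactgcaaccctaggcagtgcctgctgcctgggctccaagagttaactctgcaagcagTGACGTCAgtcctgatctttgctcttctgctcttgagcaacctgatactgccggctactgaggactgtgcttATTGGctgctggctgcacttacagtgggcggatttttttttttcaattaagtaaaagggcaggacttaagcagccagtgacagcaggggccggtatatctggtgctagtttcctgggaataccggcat
Slc25a47, chr12:108850879-108851178, plus strand: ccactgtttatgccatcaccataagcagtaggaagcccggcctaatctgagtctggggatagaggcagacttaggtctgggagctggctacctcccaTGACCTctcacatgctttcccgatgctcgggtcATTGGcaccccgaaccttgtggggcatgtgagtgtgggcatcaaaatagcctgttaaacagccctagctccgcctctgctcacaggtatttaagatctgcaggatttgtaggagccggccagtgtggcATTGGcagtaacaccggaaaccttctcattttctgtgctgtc
Slc11a1, chr1:74374953-74375252, plus strand: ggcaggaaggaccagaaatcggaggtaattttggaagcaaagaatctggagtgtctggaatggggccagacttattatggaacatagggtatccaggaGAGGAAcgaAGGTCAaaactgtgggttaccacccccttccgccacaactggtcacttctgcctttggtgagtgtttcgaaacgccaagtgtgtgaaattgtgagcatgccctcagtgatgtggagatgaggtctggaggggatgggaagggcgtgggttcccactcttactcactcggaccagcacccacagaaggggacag

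The window of Slc25a25 held a full cAMP response element 150 bases before the start. It was the only 1 of the 3 Slc25a25 windows with that element and the only 1 of 101 windows of tested members (68 genes with a window). Among all 32851 windows 1.79% held it. The half-site AGGTCA stood 153 bases before the start of Slc25a47 and 143 before that of Slc11a1, and 16.3% of all windows held 1. GAGGAA stood 152 bases before the start of Slc11a1, not overlapping AGGTCA, and was in 28.3% of all windows. In the windows shown, ATTGG stood 78 bases before the start of Slc25a25, and 120 before and 9 after that of Slc25a47. The Slc25a25 windows not shown held ATTGG too, as did a window of Slc23a2. ATTGG was in 37.4% of all windows and TATAAA in 13.6%. These matches describe the letters only.

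Among the mitochondrial carriers, Slc25a25 and Slc25a47 passed the test, and 10 of the 12 tested genes did not. Slc25a25, which exchanges ATP-magnesium for phosphate across the inner membrane, had signals of 2265, 1124, 3764, 1807, 2486, 1041, 2067 and 2969 in livers 1 to 8. Liver 3 was highest and liver 8 next, while livers 6 and 2 were lowest, a 3.62-fold range. Its adjusted p was 1.49e-08 in the typical-variance test (mean 2190.3 ± 910.1, SD, n = 8) and 0.505 in the limma test. Slc25a47 had signals of 6277, 7709, 8275, 4071, 9224, 5946, 7439 and 4182, with livers 4 and 8 lowest and clear of the others (2.27-fold range, adjusted p = 0.00154 in the typical-variance test, 0.716 in the limma test). Without livers 4 and 8 the Slc25a47 call ended (adjusted p = 0.611 in the typical-variance test). Slc25a39 and the dicarboxylate carrier Slc25a10 also had their 2 lowest signals in livers 4 and 8, with lows of 4245 and 1955 and medians of 5649 and 2910, but neither passed. The summed signal of 6 hepatocyte markers was lowest in livers 4 and 6 (108088.5 and 108134.7), 115462 in liver 8 and highest in liver 3 (155908.5), and its part in these results was not tested.

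The other mitochondrial carriers did not pass the test. Slc25a1, which exports citrate for lipid synthesis, ranged from 2642 to 3308 with a median of 2961, the narrowest range of the class at 1.25-fold. Slc25a5, which encodes an adenine nucleotide translocase, ranged from 1565 to 2339 (median 1806) on a probe set of shared sequence. Its other probe sets read 142 to 270 and 43.7 to 126, the latter without shared sequence, so the level of Slc25a5 is uncertain. Slc25a17, a family member of the peroxisomal membrane, ranged from 1388 to 1997 (median 1615). Slc25a11 exchanges oxoglutarate for malate and lay between 996 and 1393. The NAD carrier Slc25a51 had signals of 560 to 980, and the iron importer Slc25a28 of 348 to 547. Slc25a4, the other adenine nucleotide translocase tested, read 160 to 371 and was highest in liver 4, a 2.32-fold range that is wider than that of Slc25a47 but did not pass (adjusted p = 0.731 in the typical-variance test). The phosphate carrier Slc25a3 was not tested, since its mean log2 signal of 5.99 lay below the cut. Its probe set read under 162 in 7 livers and 213 in liver 6. Of the 12 tested genes 5 were lowest in liver 4, a position that 22.6% of all tested probe sets and 31.9% of the member probe sets shared.

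Among the amino acid carriers, Slc7a2 and Slc38a2 passed and 9 other tested genes did not. Slc7a2, the cationic amino acid transporter of hepatocytes, had signals of 2243, 2487, 894, 920, 1665, 1714, 1831 and 1574 in livers 1 to 8. Livers 3 and 4 lay far under the other 6, and liver 2 was highest (2.78-fold range, adjusted p = 1.75e-05 in the typical-variance test, 0.615 in the limma test). Slc38a2, which takes up neutral amino acids and is induced by their shortage, had signals of 899, 1334, 1135, 947, 526, 826, 1042 and 1042. Liver 5 was lowest and liver 2 highest (2.54-fold range, adjusted p = 0.0301 in the typical-variance test, 0.886 in the limma test). That call turned on single livers: the range fell to 0.69 on the log2 scale without liver 5 (adjusted p = 0.962) and 1.11 without liver 2 (adjusted p = 0.139). The typical-variance p of Slc38a2 was also 0.062 with arrays scaled to 1 median and 0.103 with values centred within arrays 1 to 4 and 5 to 8. Its other 3 probe sets read at most 46.3 and could not be used to check it.

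**Figure D3:**
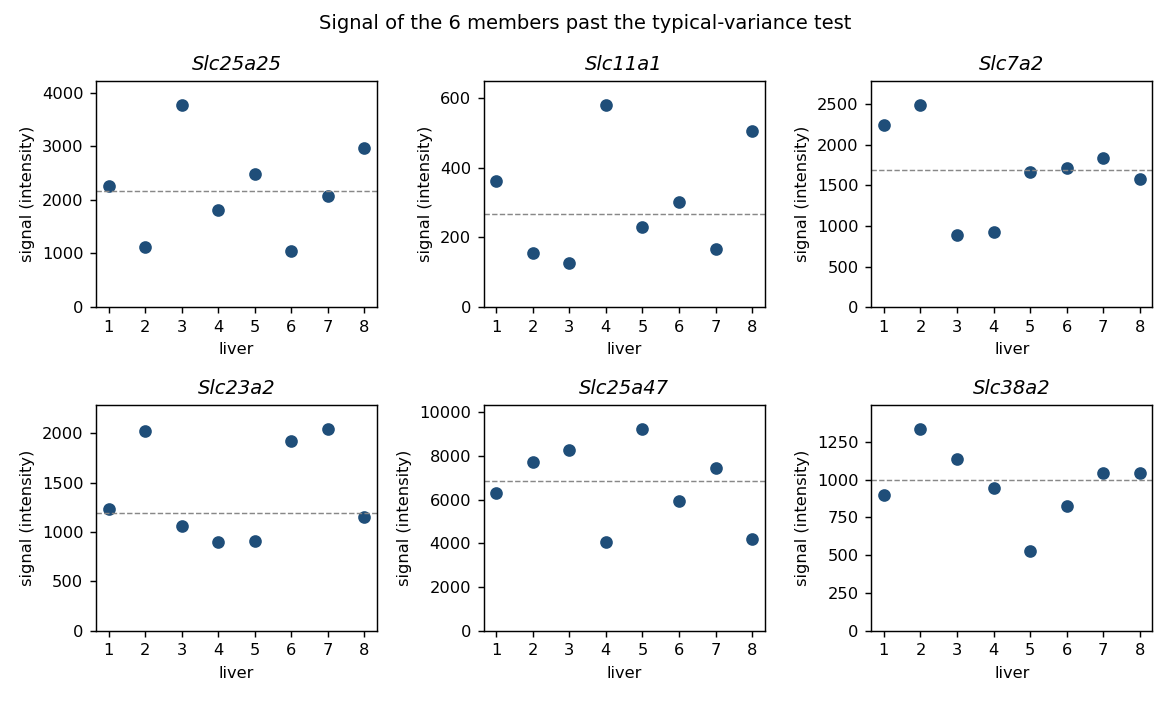
Signal (intensity, axis from 0) of the 6 members past the typical-variance test in each of the 8 livers, with a dashed line at the median. Slc11a1 is highest in livers 4 and 8 where Slc25a47 is lowest, Slc7a2 is low in livers 3 and 4, and Slc23a2 falls into 3 high and 5 lower livers.

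The other 9 tested amino acid and peptide carriers did not pass. Slc38a5, of the same family as Slc38a2, had signals of 157 in liver 5, a median of 228 and 424 in liver 2, a 2.71-fold range that was wider than that of Slc38a2, but at a dimmer signal where the typical SD is larger (adjusted p = 0.395 in the typical-variance test). Slc3a2, the heavy chain that brings several light chains to the cell surface, ranged from 1190.4 to 1705 (median 1376). Slc7a5, a light chain that carries large neutral amino acids and also thyroid hormone, ranged from 399 to 563 (median 472). Slc6a6, the taurine transporter, read 859 in liver 3, at most 1818 (liver 2), and did not pass (adjusted p = 0.127 in the typical-variance test), and its dimmer probe set was lowest in liver 5 instead (50.1). Slc1a2, a glutamate transporter of pericentral hepatocytes, ranged from 328 in liver 4 to 624 in liver 7. Slc38a10 was the steadiest of the class, from 892 to 1129. Of the 26 genes of this class 15 were not tested. Among them Slc7a1, Slc7a11, Slc7a3, Slc1a1 and Slc6a8 stayed under 162 in every liver, with highest signals of 15.0, 38.7, 65.9, 41.5 and 29.0.

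Among carriers of vitamins, choline and other solutes, Slc23a2 passed. Slc23a2 is a sodium-coupled transporter of ascorbate, and its signals were 1232, 2025, 1063, 901, 911, 1922, 2044 and 1151 in livers 1 to 8. Livers 2, 6 and 7 lay between 1922 and 2044 and the other 5 between 901 and 1232, with no value between (adjusted p = 1.21e-04 in the typical-variance test, 0.647 in the limma test). Slc66a2, brightest in the class, ranged only from 1426 to 1904 (median 1741). Slc44a1 and Slc44a4 belong to the choline transporter-like family and ranged from 480.1 to 759 and from 488 to 808. Slc5a6, which takes up biotin and pantothenate, ranged from 465 to 703. Slc48a1, a heme transporter, ranged from 329 to 610.5. The folate carriers Slc46a1 and Slc19a1 read 256 to 429 and 196 to 307, and a further Slc19a1 probe set had a median of 58.8.

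Among metal carriers, Slc11a1 passed with the widest range of any tested member, 4.61-fold. Slc11a1 pumps iron and manganese out of the phagosome and is known from macrophages. Its signals were 362, 154, 126, 580, 230, 303, 167 and 505 in livers 1 to 8. Livers 4 and 8 were highest and liver 3 lowest (adjusted p = 3.01e-07 in the typical-variance test, 0.557 in the limma test). The lowest signals were under 162, so the fold is uncertain. The summed signal of the 10 macrophage and Kupffer cell markers was 22939.5 in liver 4 and 15718 in liver 8, against a median of 7123 and a lowest value of 4190.3 in liver 7, and 7 of 8 tested markers passed the typical-variance test. Of the defining markers, Clec4f read 986 to 1817 and was the tested marker that did not pass (adjusted p = 0.550 in the typical-variance test). It was highest in liver 4, but liver 8 (1356) lay below liver 6 (1528) and liver 5 (1409). Adgre1 read 24.1 to 267 and Marco 9.2 to 83.3, and neither was bright enough to be tested. The part of macrophage RNA in the Slc11a1 result was not tested, and more macrophages and more RNA in each cannot be told apart in whole liver. Without livers 4 and 8 the Slc11a1 call ended (adjusted p = 0.0529, range 1.52 on the log2 scale).

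The remaining metal carriers did not pass. Slc31a1, which imports copper, was brightest, from 2676 to 3362 with a median of 3203, and its second probe set ranged as little, from 1749.5 to 2182. Slc39a4, a zinc importer, ranged from 1133 to 1689 (median 1444). Slc39a1 and Slc39a7, also of the zinc importer family, ranged from 733 to 1246 and from 527 to 856. Slc30a3, a zinc transporter known from synaptic vesicles, read 1230.4 to 1993 on one probe set and at most 40.8 on the other. Slc11a2, the divalent metal transporter that carries iron, ranged from 250.5 to 443 and from 186 to 414 on its 2 probe sets. Slc30a1, the zinc exporter of the cell surface, read 122 to 198 and was not tested.

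Carriers of nucleosides and nucleotide sugars held no called member. Slc35d1, which supplies UDP-glucuronate to the endoplasmic reticulum, ranged from 2582 in liver 2 to 3340.1 in liver 7 (median 3106). Slc29a1, an equilibrative nucleoside transporter, ranged from 1836 in liver 4 to 2978 in liver 2. Slc35a1, which brings CMP-sialic acid into the Golgi, stayed within 336 and 404. Slc35g3 had the largest SD of the class, with signals of 128 to 308, the lowest of them under 162.

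Carriers of organic anions, organic cations and bile salts held 9 tested genes of 18, and none passed. Slc22a18 ranged from 2302 to 3444 (median 2688) and Slc22a30 from 1749 to 2864 (median 2329), and both belong to the organic ion transporter family. Slc22a5, which takes up carnitine, ranged from 187 to 324. Slc17a1, a transporter of urate and other organic anions, was lowest in liver 4 on both probe sets, at 179 and 134. Slc22a12, the urate transporter of kidney, read 91.3 to 290 and did not pass (adjusted p = 0.119 in the typical-variance test). The annotated organic anion transporting polypeptides Slco3a1, Slco5a1 and Slco6c1 were not tested, with medians of 132, 32.1 and 13.6. The ileal bile acid transporter Slc10a2 had a highest signal of 25.3, and Slc51a, a subunit of the basolateral bile acid exporter, of 179.

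Carriers of inorganic ions, sugars, neurotransmitters, monocarboxylates and fatty acids held no called member. Slc9a8, a sodium-proton exchanger of the Golgi and endosomes, was the steadiest tested gene of all members, from 733 to 851, a 1.16-fold range. The potassium-chloride cotransporter Slc12a7 ranged from 1335 to 2077 and the sulfate transporter Slc26a1 from 637 to 1122. Slc4a2, an anion exchanger, ranged from 597 to 767. Slc4a4, a sodium bicarbonate cotransporter, had the largest SD of this class, with 291 in liver 5 and 544 in liver 2. The phosphate transporter Slc20a1 ranged from 338 to 558 and the sodium-potassium-chloride cotransporter Slc12a2 from 258 to 388. Slc4a1, the anion exchanger of red cells, was not tested, at 108 to 181.

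The sugar carriers Slc2a8 and Slc50a1 were among the 5 steadiest tested genes, from 660.4 to 786 and from 577 to 720.3. Slc2a3, a glucose transporter, ranged from 150.2 to 288. Slc2a1, the glucose transporter of most cell types, was not tested (34.1 in liver 2 to 257 in liver 4). The taurine and GABA transporter Slc6a13 was lowest in liver 4 (2631) and highest in liver 1 (4209), as was the glycine transporter Slc6a9 (735 and 1223). Slc6a4, the serotonin transporter, read 79.3 in liver 4 to 286 in liver 8 on a probe set of shared sequence (adjusted p = 0.0735 in the typical-variance test). Its other probe set, without shared sequence, read at most 29.8, so the level of Slc6a4 is uncertain. Slc16a7, a monocarboxylate transporter, ranged from 816 in liver 4 to 1590 in liver 7, whereas Slc16a1 of the same family read at most 96.6. Of the fatty acid carriers kept here, Slc27a4 ranged from 157 to 240 and Slc27a1 read at most 56.2.

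**Figure D4:**
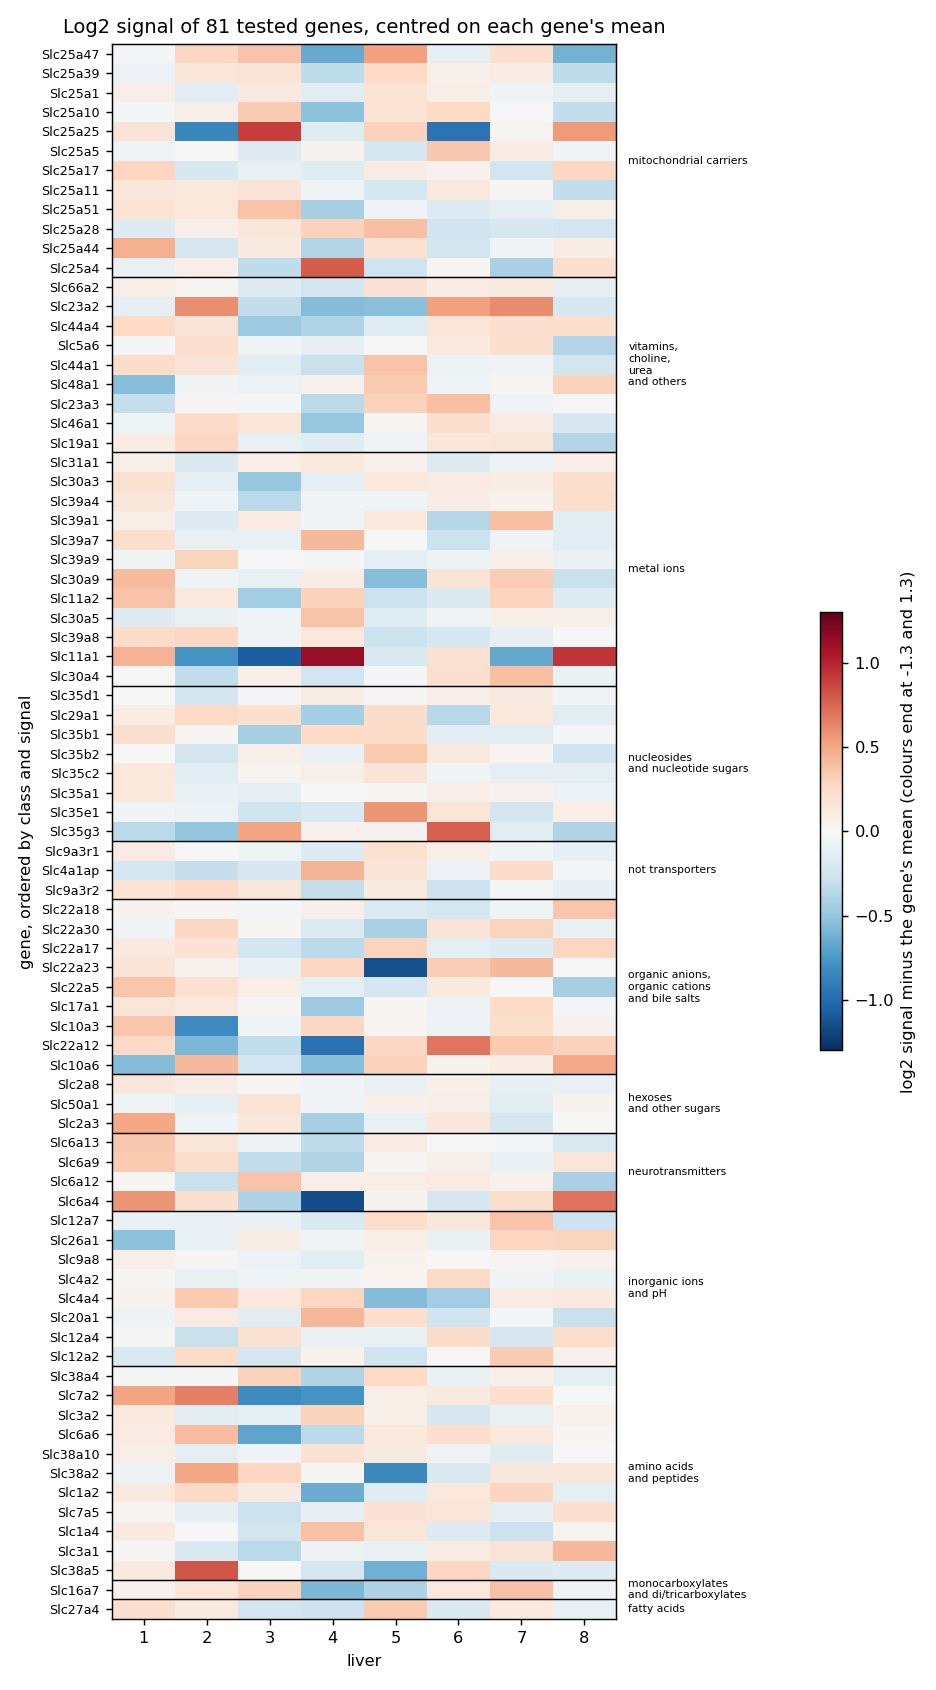
Log2 signal of the 81 tested genes (rows, by substrate class and signal) in livers 1 to 8 (columns), as the difference from each gene's mean over the livers. Most rows are pale, and the strongest colours are those of Slc11a1 (high in livers 4 and 8), Slc25a25 (high in liver 3, low in livers 2 and 6) and single dim genes such as Slc22a23 in liver 5.

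Where several probe sets of a gene were tested, they often did not follow each other. For 10 genes with a pair of tested probe sets, Pearson's r over the 8 livers had a median of 0.347 and ranged from -0.738 for Slc35e1 to 0.75 for Slc17a1, given as a description. It was above 0.5 for 3 pairs and below 0 for 3. Slc35e1 was highest in liver 5 on one probe set (407) and lowest there on the other (146). None of the 6 called genes had a second tested probe set.

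Livers 4 and 8 held the 2 lowest signals of 13 tested member probe sets (14.3%, against 10.9% of all tested) and the 2 highest of 4 (4.40%, against 9.32%). Among the former were Slc38a4, Slc25a47, Slc25a39, Slc25a10, Slc6a13, Slc46a1 and Slc19a1. The 4 that were highest there belonged to Slc11a1, Slc31a1, Slc25a4 and Slc22a18, and of these Slc11a1 passed the test. The other probe set of Slc31a1 was among the 13 that were lowest there, so the probe sets of this gene gave opposite directions (r = -0.555).

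Other transporters and partner proteins were counted from a separate list. Of 35 listed genes 29 were annotated and 20 tested, and 2 passed the typical-variance test, where 11.3% of all tested probe sets passed. Tfrc, the transferrin receptor, had a lowest signal of 853 (liver 4), a median of 1258 and a highest of 3794 (liver 5), with an adjusted p of 8.39e-14 in the typical-variance test. Aqp1, a water channel, had a lowest signal of 357 (liver 4), a median of 611 and a highest of 951 (liver 2), with an adjusted p of 0.0161 in the same test. Abcc3, a basolateral exporter of conjugated anions, ranged from 6415 to 11679, and Bsg, the chaperone of monocarboxylate transporters, from 4419 to 5468. Their median range was 1.71-fold, against 1.63-fold over all tested probe sets.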

How the data were processed

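Liver RNA of 8 Ames dwarf mice was hybridised to Affymetrix U74Av2 arrays, per the labels. The deposited table holds linear intensities of 12488 probe sets. Which software and scaling target were used is not given in the sources used here, nor are detection calls. Trimmed means (2% at each end) differed by 0.4% between arrays, so the values were used as deposited. Median intensities agreed less, with the lowest at 155.6 in liver 3. The highest were 180.75 in liver 8 and 177.9 in liver 4. The part of these medians in the patterns shared by livers 4 and 8 was not tested, dim probe sets included. All 147 genes were found in the RefSeq table by Entrez identifier, with 0 symbols changed. Before taking log2, a floor of 11.2 (the 10th percentile of the table) replaced lower intensities. The 66 control probe sets were not used. The typical-variance test used a loess curve (span 0.3) of log variance on signal and a one-sided chi-square with 7 degrees of freedom. The limma test (limma 3.58.1, R 4.3.3) used an intensity-trended robust prior with 4.90 prior degrees of freedom and a one-sided F. Both were adjusted over 6211 probe sets by Benjamini-Hochberg at 0.05. A trial on simulated data gave unchanged probe sets exactly the typical SD, so it cannot vouch for the calls in these data. Alternatives changed scaling, floor, filter, shared-sequence probe sets, arrays and curve. Each gene is given at its probe set of highest mean signal unless stated.

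Members, substrate classes, lists and the naming rule were chosen with earlier results of these data known, and family 66 was put into a class after the annotation had been read. Named genes were the 2 brightest of each class, the called ones, those with the largest SD of each class, the 5 steadiest, the best and worst agreeing probe set pairs, and 23 annotated genes of a list of 35 liver transporters. Other genes named here were chosen after their values were seen.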

Additional observations from a re-analysis of the deposited data

Results flagged for a closer look

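Of 64 values checked, 52 named genes and 12 class medians, 5 had 1 liver apart from the other 7, judged by the gap to the nearest liver as a share of the whole log2 range (Dixon's test at the 95% level). Chance alone flags about 1 in 20 such values if they are normally distributed, and some of the named genes were chosen by their SD. The share flagged among all tested probe sets is not given, so the count has no background here. Slc4a2 was apart in liver 6 (share 0.653, signal 767), Slc35d1 in liver 2 (0.562, signal 2582), Slc17a1 in liver 4 (0.548, signal 179), Slc26a1 in liver 1 (0.533, signal 637) and Slc1a2 in liver 4 (0.531, signal 328). None of these genes passed the typical-variance test.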

How the results depend on the processing

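Of the 6 called members, Slc25a25, Slc7a2 and Slc23a2 kept their call in all 18 alternatives run, Slc11a1 and Slc25a47 in 17 (lost without livers 4 and 8) and Slc38a2 in 14. With 1 liver left out the count of members called ranged from 6 to 7 (6.38 to 7.78%, against 9.53 to 11.1% of all). It was 5 with arrays scaled to 1 median (5.49%, against 9.66%). It was also 5 with values centred within arrays 1 to 4 and 5 to 8 (5.49%, against 10.1%). Both of these settings lost Slc38a2. Without livers 4 and 8 the count was 6 (6.52%, against 8.1%), of which 4 were called with all livers, with Slc22a23 and Slc6a6 gained. Without a filter on dim probe sets it was 12 of 179 (6.70%, against 8.07% of all), adding probe sets of Slc2a1, Slc2a4, Slc2a5, Slc6a6, Slc7a7 and Slc8a1. The limma test called 0 members in every alternative run (0 to 0 with 1 liver left out). Class medians moved by more than their SD over livers with shared-sequence probe sets removed (mitochondrial carriers 8.68, neurotransmitters 6.58) and with a gene's tested probe sets averaged (mitochondrial carriers 8.79). No paired analysis was possible because there is 1 group. Low signals limit all folds below 162.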

Other observations

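Of the 88 member probe sets that were not tested, 7 (7.95%) had their 2 highest signals in livers 4 and 8, against 9.29% of all 6211 untested probe sets. The 3 described here were chosen after their values were seen. Slc8a1, a sodium-calcium exchanger, read 203 in liver 4 and 134 in liver 8 and at most 34.1 in the other 6 on its brightest probe set, while its other 2 probe sets did not exceed 51.8. Slc7a7, a cationic amino acid exchanger, read 376 and 234 in these livers against 36.7 to 200.2 in the others, and Slc2a1 read 257 and 217 against 34.1 to 175.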
